A study of Mus musculus with 8 samples.

Results

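The Mir29 and Mir148 families are small groups of microRNA (miRNA) genes whose products are known to bind the mRNAs of DNA methyltransferases. The members described here are 6 genes, Mir29a, Mir29b-1, Mir29c, Mir148a, Mir148b and Mir152, of 2202 miRNA genes in the GENCODE mouse annotation, of which 605 had a count. They were chosen by name, and their reads were found as sequences of 20 to 24 nt that occur exactly, on the sense strand, in their annotated transcripts. These were 37 distinct sequences of 3364 that matched any miRNA, and 0 of the 37 also matched another miRNA gene. Each gene has a 5p and a 3p arm, named after the side of the hairpin from which the mature miRNA is cut. Of the 12 member arms, 9 had a count and 3 had none.

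Small RNA was sequenced from male mouse primordial germ cells (mPGCs) of 3 stages, E12.5, E13.5 and then E15.5, and from Day 6 mPGC-like cells (mPGCLCs) of the SGET line, with 2 libraries in each of the 4 groups. The mPGCs carried the GOF18 reporter, a GFP transgene driven by Pou5f1 regulatory sequence, and each replicate came from pooled embryos. The sample labels give C57BL/6J as their strain and a sort for SSEA1 and CD61, while the study's methods give an FVB/C57BL/6J mixed background and a sort for the EGFP reporter. The SGET mPGCLCs were made from 1 male embryonic stem cell line of B6CBA/129 background in embryoid bodies, and were sorted as Stella-GFP positive and Esg1-tdTomato negative. No gene was deleted in any group, and every line carried reporter transgenes. Because the sampled cells were sorted pools, fewer cells of a type and less RNA per cell cannot be told apart.

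A miRNA is loaded into an Argonaute protein and guides it to mRNAs through its seed, bases 2 to 8 from the 5′ end, after which the mRNA is repressed or degraded. In mammals, DNMT3A and DNMT3B place new DNA methylation, DNMT1 with its partner UHRF1 copies it after replication, and TET enzymes oxidise it. miR-29 is known to target Dnmt3a and Dnmt3b, and miR-148a and miR-152 to target Dnmt1. Male germ cells pass through a stage of very low DNA methylation before it returns in the fetal gonad, which spans the sampled stages.

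The mature 3p sequences show which members share a seed. They are printed 5′ to 3′ from RefSeq with bases 2 to 8 in capitals.
miR-29a-3p: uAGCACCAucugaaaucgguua
miR-29b-3p: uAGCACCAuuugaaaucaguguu
miR-29c-3p: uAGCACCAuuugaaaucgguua
miR-148a-3p: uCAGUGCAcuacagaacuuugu
miR-148b-3p: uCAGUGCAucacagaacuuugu
miR-152-3p: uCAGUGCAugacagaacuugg
The first 3 share the seed AGCACCA and the last 3 share CAGUGCA, so each family would pair with 1 type of seed match. Counted from the 5′ end, miR-29c-3p differs from miR-29a-3p at 1 position, C10U, and miR-29b-3p differs from miR-29a-3p at 4, C10U, G18A, U21G and A22U. miR-148b-3p differs from miR-148a-3p by C9U and U10C, and miR-152-3p by C9U, U10G and U20G. All of these differences lie outside the seed. Position 10 separates miR-29a-3p from miR-29b-3p and miR-29c-3p, and it separates miR-148a-3p, miR-148b-3p and miR-152-3p from each other by exact matching. Position 18 separates miR-29b-3p from miR-29c-3p. A read of 20 nt from the annotated start does not reach positions 21 and 22.

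In the mouse genome (GRCm38.p6), miR-29a-3p lies on the minus strand at chr6:31062673-31062694 and miR-29b-3p at chr6:31063025-31063047. Their hairpins are 275 bases apart, and the Mir29b-1 hairpin lies in an exon of the lincRNA Gm27019. miR-29c-3p lies on the plus strand at chr1:195037600-195037621, in an exon of the noncoding transcript A330023F24Rik and opposite Cd46. Its hairpin is 426 bases from that of Mir29b-2, a second gene for the same miR-29b-3p, which had a count of 0 in all 8 libraries. miR-148a-3p lies on the minus strand at chr6:51269829-51269850, outside any other annotated gene. miR-148b-3p at chr15:103285185-103285206 and miR-152-3p at chr11:96850439-96850459 lie in introns of Copz1 and Copz2, which encode related subunits of the COPI vesicle coat, on the same strand as their host genes.

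To show what the seeds could pair with, the annotated 3′ UTRs of 8 genes of the DNA methylation machinery were searched on the sense strand for the complement of each seed. The longest 3′ UTR of each gene was used, and coding sequences were not part of the search. For miR-29 the letters TGGTGCT occurred 5 times in Dnmt3a, whose 3′ UTR has 6696 bases, and 46.2% of 511 annotated 3′ UTRs of similar length held at least 1 match. They occurred 1 time in Dnmt3b (12.2% of 3109 3′ UTRs of like length), 7 times in Tet1 (50.8% of 307), 5 times in Tet2 (26.7% of 2399) and 8 times in Tet3 (43.6% of 768). Each share is of 3′ UTRs with at least 1 match, so it does not show how usual several matches are. For miR-148 the letters TGCACTG occurred 1 time in Dnmt1 (3.23% of 1888) and 1 time in Uhrf1 (10.4% of 2945), and 0 times in Dnmt3a, Dnmt3b, Dnmt3l, Tet1, Tet2 and Tet3. For miR-29 there were 0 matches in Dnmt1, Dnmt3l and Uhrf1, so none of the 8 UTRs held a match for both families. The 4 windows below, from GENCODE transcripts (GRCm38) with the match in capitals, are from the classical target genes of each family, and for Dnmt3a they are the 2 of its 5 matches that are followed by an A.
Dnmt3a, chr12:3911405-3911411: cccaggggaggtagcTGGTGCTa
Dnmt3a, chr12:3911474-3911480: agcggggtcccaagcTGGTGCTa
Dnmt3b, chr2:153686627-153686633: tagagtagcccggcaTGGTGCTc
Dnmt1, chr9:20907492-20907498: acccagagccccacgTGCACTGa
The coordinates are those of the capitals, on the minus strand for Dnmt1 and the plus strand for the others. A match of letters is a description of the sequence, and neither the mRNAs nor DNA methylation was measured in these libraries.

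Each deposited file gives the count of every distinct sequence among the mapping reads, from 15 to 43 nt. Totals ran from 7447873 to 26552524 reads per library. Reads of 20 to 24 nt that matched a miRNA were 12.8% and 20.6% of mapping reads at E12.5, then 14.6% and 21.3% at E13.5, and 16.0% and 24.8% in SGET mPGCLCs, but 2.22% and 1.89% at E15.5. The members are therefore given on 2 scales, which differ at E15.5 in what they show. RPM is the count scaled to a library of 1000000 mapping reads, and miRNA RPM is the count scaled to 1000000 reads that match a miRNA. The germ and pluripotent cell list (Mir290a to Mir295 and Mir302a to Mir302d, 10 genes) was at 12.9 to 36.8% of miRNA-matching reads in all libraries, with 9 or 10 of its genes counted. Of the 3 erythroid genes, Mir451a had a count of 1 in a single library and 0 in the other 7. Mir144 had 71 counts in E13.5 replicate 2 only. Mir486 had 248 counts in E12.5 replicate 2, 306 in E13.5 replicate 2, 22 and 498 at E15.5, and 1 in SGET replicate 1. Mir202, abundant in gonadal somatic cells, had 758 to 8483 counts in each mPGC library and 0 in both SGET libraries. The 6 mesenchymal genes, which include Mir143 and Mir199a-1, were at 0.108 to 1.17% of miRNA-matching reads in all libraries. The 3 erythroid genes summed to 0 to 499 counts, the 3 myeloid and lymphoid genes (Mir223, Mir142 and Mir150) to 0 to 468, and the endothelial Mir126a had 1 to 1187.

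One library stood apart. In E15.5 replicate 2, 73.2% of the distinct miRNA-matching sequences had 1 to 10 counts and the median was 3 counts, against 10.5 to 27.8% and medians of 52 to 390.5 counts in the other 7. No molecular identifier was read from the random adapter bases, and the counts therefore include copies made by PCR. Each E15.5 value is given by library for this reason.

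Mir29a 3p was counted in all 6 mPGC libraries and nearly missing from the SGET mPGCLCs. At E12.5 it had 540 and 1555 counts, which were 72.5 and 114 RPM. At E13.5 it had 2715 and 2100 counts, or 225 and 106 RPM. At E15.5 it had 406 and 3946 counts, or 29.8 and 149 RPM. In SGET mPGCLCs it had 2 counts in replicate 1 (0.196 RPM) and 0 in replicate 2, where the limit of 3 counts is 0.315 RPM. This limit covers counting error only. Counts include PCR copies, and the median distinct miRNA-matching sequence had 195 counts in SGET replicate 1 and 390.5 in replicate 2. A count of 0 therefore does not bound the level as tightly as 0.315 RPM. In the values as counted, every mPGC library was above both SGET libraries, while the ranges of the 3 mPGC groups overlapped on this scale.

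The order of the Mir29a 3p means in RPM was E13.5 with 165.9 ± 84.2, E12.5 with 93.4 ± 29.5, E15.5 with 89.2 ± 84.0 and SGET mPGCLCs with 0.0979 ± 0.139 (SD, n = 2 each). The first 3 differed from each other by less than their spread. In miRNA RPM, Mir29a 3p was at 566 and 554 at E12.5, then 1546 and 501 at E13.5, then 1346 and 7863 at E15.5. On this second scale Mir29a 3p was higher in both libraries of E15.5 than in those of E12.5, but the former differed widely from each other, with an SD of 4608 around a mean of 4604. In SGET mPGCLCs it was at 1.22 and 0 in miRNA RPM.

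**Figure D1:**
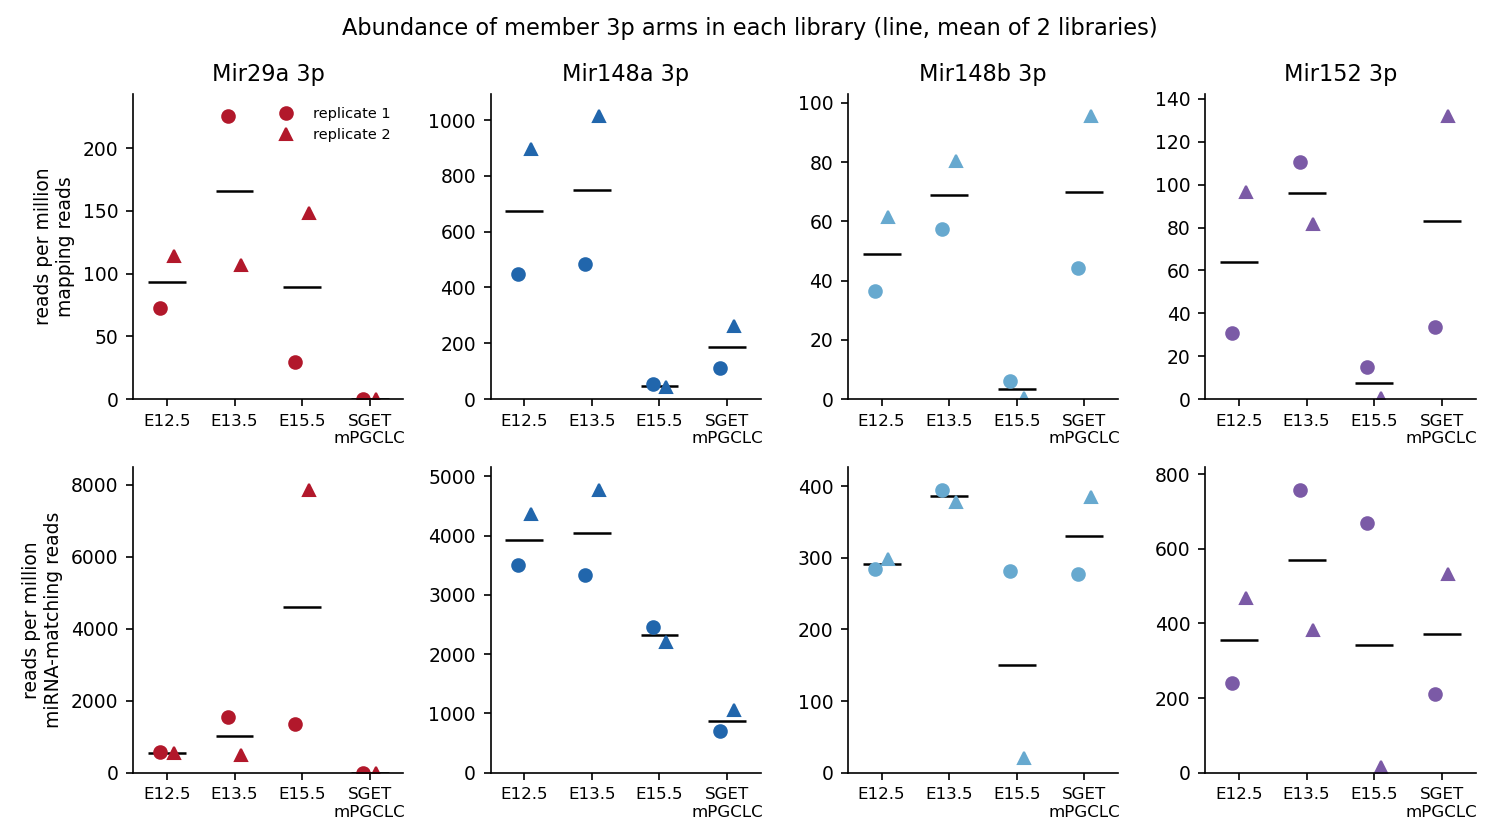
Level of the 3p arms of Mir29a, Mir148a, Mir148b and Mir152 in each of the 8 libraries, in RPM (top) and miRNA RPM (bottom), on linear axes from 0; circles are replicate 1, triangles replicate 2, and lines the mean of the 2 libraries. Mir29a 3p lies at or near 0 in both SGET libraries, and at E15.5 the Mir148 family is low on the top scale and less so on the bottom one.

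The other Mir29 members were counted irregularly. Mir29b-1 5p, the arm opposite the miR-29b-3p guide, had 0 and 4 counts at E12.5, then 261 and 222 at E13.5, then 260 and 6 at E15.5, and last 0 and 47 in SGET mPGCLCs. Its libraries differed widely within each group but E13.5, so no order of its groups is given. Mir29c 3p had 111 counts of a single sequence in E13.5 replicate 2, 1 count in E15.5 replicate 2 and 0 in the other 6 libraries. Mir29a 5p, Mir29c 5p and miR-29b-3p, from either of its genes, had a count of 0 in every library. The limit of 3 counts is 0.113 to 0.403 RPM, depending on the library, and covers counting error only.

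Mir148a 3p was the most abundant member arm in 7 of the 8 libraries. At E12.5 it had 3343 and 12219 counts, or 449 and 897 RPM. At E13.5 it had 5844 and 20018 counts, or 485 and 1014 RPM. At E15.5 it had 742 and 1106 counts, which were 54.6 and 41.7 RPM. In SGET mPGCLCs it had 1153 and 2491 counts, or 113 and 261 RPM. Both E15.5 libraries were below all other libraries on this scale, and both SGET libraries were below all E12.5 and E13.5 libraries. The exception to its first place was E15.5 replicate 2, where Mir29a 3p had 3946 counts and Mir148a 3p had 1106.

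The order of the Mir148a 3p means in RPM was E13.5 with 749.8 ± 374, E12.5 with 673 ± 317, SGET mPGCLCs with 187 ± 105 and E15.5 with 48.1 ± 9.12 (SD, n = 2 each). E13.5 and E12.5 differed by less than their spread. In miRNA RPM it was at 3502 and 4357 at E12.5, then 3328 and 4772 at E13.5, then 2460 and 2204 at E15.5, and last 705 and 1053 in SGET mPGCLCs. On that scale the SGET libraries were the lowest, and the E15.5 libraries lay between them and the others.

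Mir148b 3p and Mir152 3p, which share its seed, were less abundant. Mir148b 3p was at 36.5 and 61.5 RPM at E12.5, then 57.5 and 80.4 at E13.5, then 6.25 and 0.377 at E15.5, and last 44.4 and 95.5 in SGET mPGCLCs. Mir152 3p was at 30.9 and 96.6 RPM at E12.5, then 110.4 and 81.4 at E13.5, then 14.9 and 0.301 at E15.5, and last 33.8 and 132 in SGET mPGCLCs. In both, the E15.5 libraries were below all others on this scale and the other 3 groups overlapped. In miRNA RPM, Mir148b 3p was at 285 and 298 at E12.5 and at 395 and 378 at E13.5. It was at 282 and 19.9 at E15.5 and at 277 and 385 in SGET mPGCLCs. Mir152 3p was at 241 and 469, 757 and 383, 670 and 15.9, and 211 and 531 in the same order. On that scale only E15.5 replicate 2 was below all others, and E15.5 replicate 1 lay within the range of the other groups. The lowest values, of E15.5 replicate 2, rest on 10 counts of Mir148b 3p and 8 of Mir152 3p.

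The 5p arms of the Mir148 family were minor. Mir148a 5p had 178 and 175 counts at E12.5, then 0 and 102 at E13.5, then 0 and 0 at E15.5, and last 187 and 0 in SGET mPGCLCs. Mir148b 5p had 80 counts in E12.5 replicate 2, 2 in E13.5 replicate 2 and 0 elsewhere, and Mir152 5p had 1 count in all. Where Mir148a 5p was counted, the 3p arm had 6.17 to 196 times as many counts, so the 3p arm was the major product wherever both were seen.

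Mir148a took a smaller share of the Mir148 family 3p reads in both SGET libraries than in any mPGC library. Mir148a made up 86.9% and 85.0% of them at E12.5, then 74.3% and 86.2% at E13.5, then 72.1% and 98.4% at E15.5, and last 59.1% and 53.5% in SGET mPGCLCs. Mir148a 3p had 12.3 and 14.6 times the counts of Mir148b 3p at E12.5, against 2.55 and 2.74 times in SGET mPGCLCs. The SGET libraries were the lowest of the 8 in both measures. With 2 libraries against 2, an exact two-sided permutation test of a single value cannot give a p below 0.33, so these ratios carry no p-value. The ratios are within a library and do not depend on the scale, apart from any difference in how well each sequence is captured by the library chemistry.

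**Figure D2:**
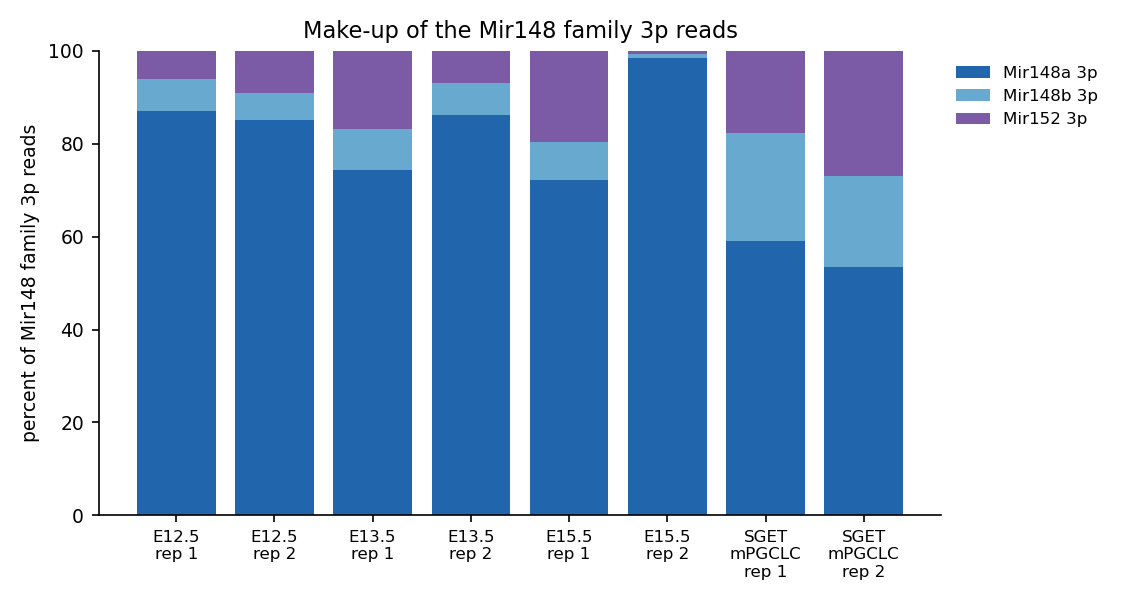
Percent of the 3p reads of the Mir148 family that came from Mir148a, Mir148b and Mir152 in each library; each bar is 1 library and sums to 100%. Mir148a makes up 59.1% and 53.5% of the bars of SGET mPGCLCs and 72.1% or more in each mPGC library.

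Differences between groups were tested by edgeR (quasi-likelihood) over all miRNA arms, with the mapping reads as library size, all 4 groups in 1 fit and Benjamini-Hochberg adjustment over the 493 arms that passed the filter. Of the 12 member arms, 6 passed the filter and were tested. Values for those that did not pass, Mir29c 3p, Mir148b 5p and Mir152 5p, are given above. The log2 fold changes carry the standard error (SE) that the F statistic implies. The comparisons share libraries and are not independent of each other.

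Between E12.5 and E13.5 no member arm was called. Of all arms tested, 0.0% were called higher at E13.5 by edgeR and 0.0% lower. An unadjusted p below 0.05 was reached by 5 arms, and DESeq2 called 9 arms. The log2 fold changes of E13.5 minus E12.5 were 0.83 (SE 1.48) for Mir29a 3p, 0.16 (SE 0.83) for Mir148a 3p, 0.49 (SE 1.87) for Mir148b 3p and 0.59 (SE 1.77) for Mir152 3p. The median over all arms was 0.09. Intervals of this width cannot show whether the members differed between these stages.

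Between E13.5 and E15.5, 18.5% of all arms were called lower at E15.5 on the scale of mapping reads, and 1 of the 6 tested member arms was called. Mir148a 3p fell by 3.96 on the log2 scale (SE 0.93), with an adjusted p of 0.00502 in edgeR's quasi-likelihood test (Benjamini-Hochberg). The median of all 493 arms was -3.51 in the same comparison, so Mir148a 3p lay close to the median arm, with a difference of -0.45 from it. Mir148b 3p had a log2 fold change of -4.38 (SE 2.15) and Mir152 3p of -3.66 (SE 1.96), neither of which was called. Mir29a 3p had -0.89 (SE 1.48), which is 2.62 above the median arm, with 66 of the 493 arms having a higher log2 fold change. Mir29b-1 5p had -0.77 (SE 3.75) and Mir148a 5p, listed at 0 in both E15.5 libraries, was not called.

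Between E12.5 and E15.5 the same member was called. On the scale of mapping reads 17.6% of all arms were called lower at E15.5, with a median log2 fold change of -3.32, and of the tested members Mir148a 3p alone was called, at -3.81 (SE 0.93, adjusted p of 0.00822 in edgeR's quasi-likelihood test (Benjamini-Hochberg)). This call was lost without E12.5 replicate 2, where the log2 fold change was -3.22 and the adjusted p 0.0776 (edgeR's quasi-likelihood test). Mir29a 3p had a log2 fold change of -0.07 (SE 1.47). Without E15.5 replicate 1, Mir152 3p was also called lower, at -7.68 against E12.5 (adjusted p of 0.0479, edgeR) and -8.27 against E13.5 (adjusted p of 0.0350, edgeR), and the E15.5 value then rested on the 8 counts of replicate 2.

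When the miRNA-matching reads were the library size, the median of all arms moved to -0.30 for E15.5 minus E13.5 and -0.28 for E15.5 minus E12.5, and no member was called. Mir148a 3p was then at -0.80 (SE 0.72) and -0.75 (SE 0.72). Mir29a 3p turned in direction, to 2.17 (SE 1.07) above E13.5 and 3.04 (SE 1.11) above E12.5, with adjusted p of 0.64 and 0.115 in edgeR's quasi-likelihood test (Benjamini-Hochberg), where 0.194% and 1.94% of 515 arms were called higher. DESeq2, whose size factors gave similar centring, called Mir29a 3p higher at E15.5 than at E12.5, at 3.62 (SE 1.07, adjusted p of 0.0126), and Mir29b-1 5p at 9.41 (SE 2.47, adjusted p of 0.00305), with 7.48% of its 508 arms called higher. Mir29b-1 5p rests there on 4 counts at E12.5 and on 260 counts of a single E15.5 library. Set against the median arm of the same fit, Mir148a 3p at E15.5 was at -0.49 to -0.35 relative to E12.5, while Mir29a 3p was at 3.26 to 3.57, over the 2 edgeR fits and DESeq2. Mir29a 3p was called against E12.5 by DESeq2 and by neither of the 2 edgeR fits. Its distance from the median arm depended on E15.5 replicate 2. Without that library, edgeR on mapping reads gave Mir29a 3p -1.64 against E12.5, where the median arm was -3.28. Against E13.5 it gave -2.47, where the median arm was -3.48.

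**Figure D3:**
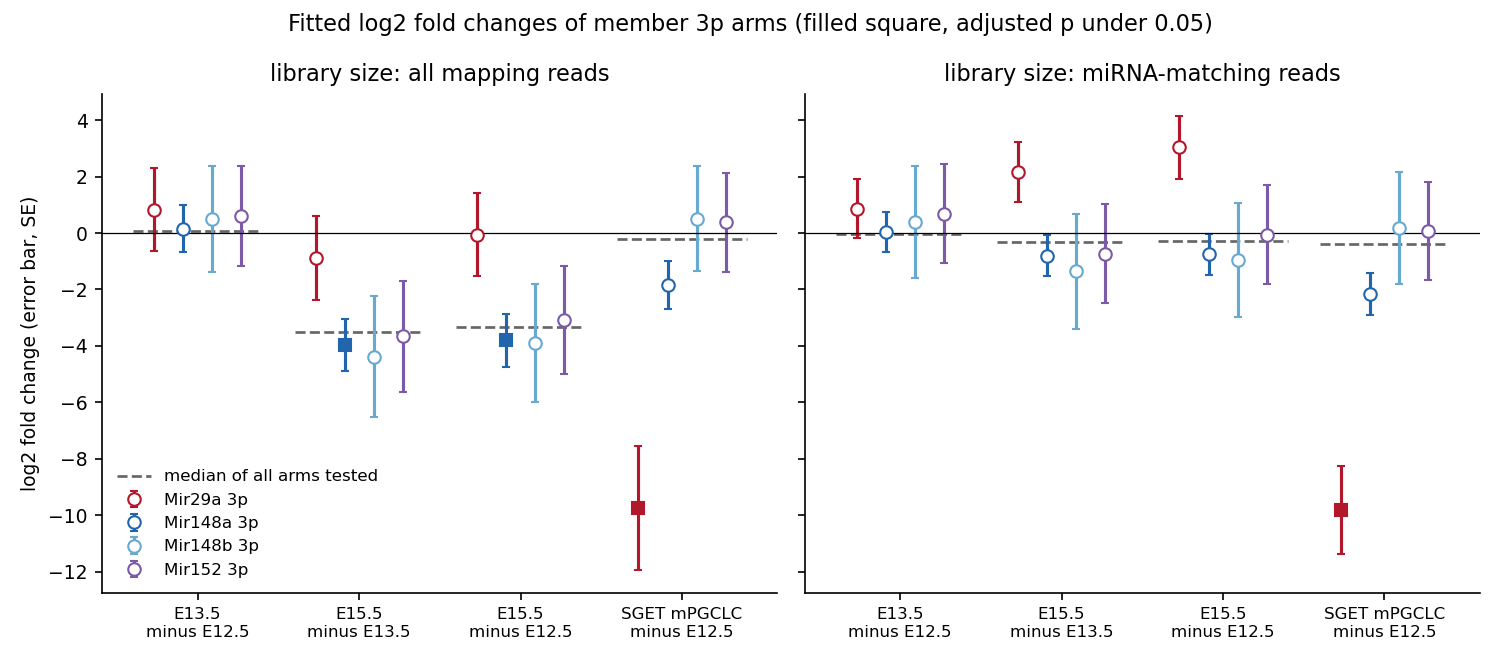
Log2 fold change with its SE for 4 member 3p arms in the 4 comparisons, from edgeR fits with all mapping reads (left) or miRNA-matching reads (right) as library size; filled squares have an adjusted p under 0.05, open circles do not, and dashed lines are the median of all arms tested. For E15.5 the 3 Mir148 family arms lie within about 1 SE of the median line in both panels, while Mir29a 3p lies 2.62 and 3.26 above it on the left and 2.47 and 3.32 above it on the right.

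Markers of gonadal somatic and mesenchymal cells were also at a higher share of miRNA-matching reads in the E15.5 libraries than in the E12.5 libraries, and their part in the Mir29a values was not tested. Mir202 made up 0.116% and 0.0845% of miRNA-matching reads at E12.5, then 0.187% and 0.202% at E13.5, then 0.251% and 0.308% at E15.5. The mesenchymal list was at 0.403% and 1.17% at E15.5 against 0.174% and 0.121% at E12.5, with 5 or 6 of its 6 genes counted in each library. At E13.5 it was at 0.108% and 0.394%. The endothelial Mir126a went the other way, from 0.0136% and 0.0222% at E12.5 to 0.000332% and 0.00697% at E15.5. The myeloid and lymphoid list was at 0.0155% and 0.0112% at E12.5 and 0.0448% and 0.00857% at E15.5. The erythroid list was at 0% and 0.00884% at E12.5 and 0.00729% and 0.0994% at E15.5. The germ and pluripotent cell list was at 30.1% and 29.3% at E12.5, then 21.5% and 21.1% at E13.5, then 14.1% and 12.9% at E15.5, and its part was not tested either. In SGET mPGCLCs, where Mir29a 3p had 2 and 0 counts, Mir202 had 0 counts in both libraries, the mesenchymal list was at 0.543% and 0.668%, and the germ and pluripotent cell list was at 35.9% and 36.8%.

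Against E12.5, the clearest difference of the SGET mPGCLCs among the members was that of Mir29a 3p. These groups also differ in culture origin, strain background and sort. The paper likens Day 6 mPGCLCs to migratory mPGCs, a stage before E12.5. Such differences cannot be told apart in this comparison. Of all arms 3.45% were called lower in SGET mPGCLCs, and Mir29a 3p was the only member among them, with an adjusted p of 0.0134 in edgeR's quasi-likelihood test (Benjamini-Hochberg). With the miRNA-matching reads as library size 7.38% of arms were called lower and its adjusted p was 8.94e-06 in the same test. Pooled over the libraries of each group, 2 counts stood against 2095, a ratio of 0.00102 of the share of mapping reads at E12.5 (95% exact interval 0.000123 to 0.00368, which covers counting error only). Of the 493 arms tested, 432 had a higher log2 fold change than Mir29a 3p and 12.2% had a lower one. The fitted log2 fold change of -9.75 (SE 2.20) depends on the prior count. When only the E12.5 and SGET libraries were fitted it was -9.71 and the call was lost, with an adjusted p of 0.0783 in edgeR's quasi-likelihood test. The gonadal somatic marker Mir202 was lower in the same comparison, with 1110 and 2370 counts at E12.5 against 0 and 0 in SGET mPGCLCs and 1 of its 2 arms called lower, and its part in the Mir29a difference was not tested.

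Shorter reads bear on this difference. SGET replicate 1 held 477 counts of a 16-nt sequence that begins like miR-29a-3p and lies below the 20-nt limit, and that matched no other miRNA gene.
Mir29a, 16 nt: tAGCACCAtctgaaat
The same sequence had 115 counts in E12.5 replicate 1 and 0 in the other 6 libraries. With all deposited lengths of 15 to 43 nt, Mir29a was at 87.9 and 114 RPM at E12.5 and at 46.9 and 0 in SGET mPGCLCs. The log2 fold change of Mir29a 3p was then -2.11 and no longer called, with an adjusted p of 0.445 in edgeR's quasi-likelihood test (Benjamini-Hochberg). Whether such short reads also come from other places in the genome was not analysed here. The low level of Mir29a 3p in SGET mPGCLCs therefore holds for reads of mature length, and in replicate 2 for all lengths.

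No other member was called between SGET mPGCLCs and E12.5 by edgeR. Mir148a 3p had a log2 fold change of -1.85 (SE 0.85, adjusted p of 0.296) on the scale of mapping reads and of -2.16 (SE 0.75, adjusted p of 0.0597) on that of miRNA-matching reads, in edgeR's quasi-likelihood test (Benjamini-Hochberg). DESeq2 called it lower, at -2.05 (SE 0.68, adjusted p of 0.0122), where 13.0% of arms were called lower. Mir148b 3p had 0.51 (SE 1.87) and Mir152 3p 0.38 (SE 1.77) on the scale of mapping reads, against a median arm of -0.21. All 4 E12.5 and E13.5 libraries were above both SGET libraries for Mir148a 3p on both scales. SGET mPGCLCs were tested against E12.5 and not against E13.5.

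Within an arm, the reads were mostly the annotated mature form. The sequences below are the most abundant of each 3p arm as sequenced, with bases 2 to 8 of the read in capitals, and the second line of each gene is the next one that shows how it varied.
Mir29a, 22 nt: tAGCACCAtctgaaatcggtta
Mir29a, 1 base upstream: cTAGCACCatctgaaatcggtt
Mir148a, 22 nt: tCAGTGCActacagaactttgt
Mir148a, 23 nt: tCAGTGCActacagaactttgtc
Mir148b, 22 nt: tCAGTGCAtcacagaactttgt
Mir152, 21 nt: tCAGTGCAtgacagaacttgg
Mir152, 22 nt: tCAGTGCAtgacagaacttggg
Of all 11264 Mir29a 3p counts, 69.8% were the first of these, 86.8% began at the annotated base and 12.1% began 1 base upstream, which moves the seed by 1 base. Reads with the upstream start made up 10.1% or more of Mir29a 3p in 4 libraries and 0% in E12.5 replicate 1 and E15.5 replicate 1. The 5′ end of Mir148a 3p was more uniform, with 97.3% of 46916 counts at the annotated base, and its 3′ end varied, with 58.6% of reads at 22 nt and 35.9% at 23 nt. Mir148b 3p was 22 nt long in 91.1% of its 4846 counts and Mir152 3p 21 nt long in 82.5% of its 6294 counts.

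The 3′ ends also set E15.5 replicate 2 apart from the rest. Its Mir148a 3p reads were 96.1% of 22 nt and 3.25% of 23 nt, against 40.8 to 73.7% and 26.2 to 46.2% in the other 7 libraries. Its Mir29a 3p reads held 992 counts of a 23-nt form with 1 more base at the 3′ end, which had 1 count in all other libraries together. Each of these values rests on few distinct sequences, since Mir29a 3p had 3 to 5 of them in each mPGC library.

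**Figure D4:**
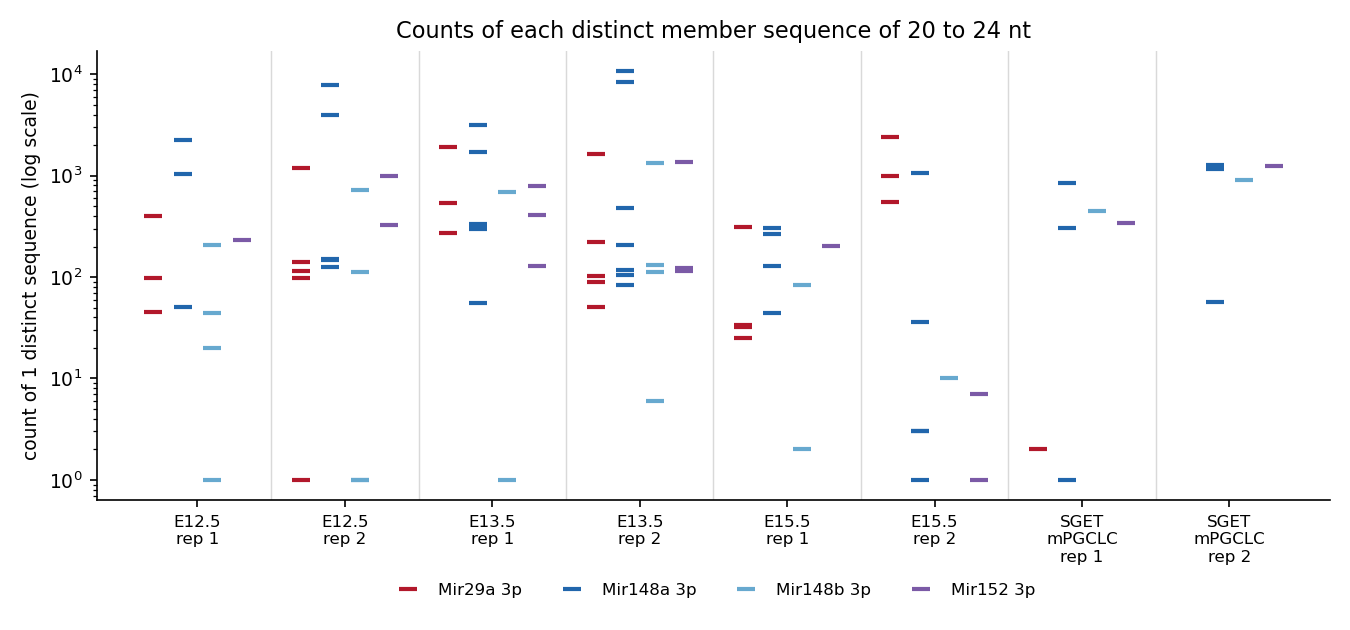
Count of each distinct sequence of 20 to 24 nt of 4 member 3p arms in each library, on a log scale; 1 dash is 1 sequence. Between 0 and 7 sequences carry each arm in a library, Mir29a 3p has a single sequence of 2 counts in SGET replicate 1 and none in replicate 2, and in E15.5 replicate 2 Mir148b 3p and Mir152 3p have no sequence above 10 counts.

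The arms most like each family were taken by Pearson's r of log2(miRNA RPM + 1) over the 8 libraries, among arms with a mean of at least 100 counts. For the Mir29 family 3p sum these were Mir878 5p (r = 0.989), Mir871 3p (r = 0.981) and Mir471 5p (r = 0.981), of 343 arms compared. Mir871 3p was at 1781 and 1824 miRNA RPM at E12.5, against 48975 and 84052 at E15.5, and at 1.22 and 0.846 in SGET mPGCLCs. Mir878 5p and Mir471 5p had a count of 0 in both SGET libraries. The Mir29 family 3p sum was at 1.22 and 0 there, so the 2 SGET libraries, near 0 for all of these, weigh heavily in r. Within the mPGCs the arms could differ. At E13.5 the Mir29 family 3p sum was at 1546 and 527 miRNA RPM, and Mir878 5p at 783 and 1078. For the Mir148 family 3p sum they were Mir106b 5p (r = 0.964), Mir30a 5p (r = 0.954) and Mir760 3p (r = 0.944), of 342 arms. Mir106b 5p was at 2691 and 3593 miRNA RPM at E12.5, 1154 and 1040 at E15.5, and last 436 and 665 in SGET mPGCLCs. These correlations are descriptions over points that share libraries and their depth.

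Other miRNAs that are known to act against DNA methyltransferase mRNAs were Mir29b-2, Mir101a, Mir101b, Mir126a, Mir140, Mir143, Mir185 and Mir342, of which 7 had counts and 11 arms were tested. The 1 arm called in any of the 4 comparisons was Mir101b 3p, which was lower at E15.5 against each earlier stage, at -4.07 (SE 1.18, adjusted p of 0.0211) against E12.5 and -4.02 (SE 1.18, adjusted p of 0.0220) against E13.5 in edgeR's quasi-likelihood test (Benjamini-Hochberg). Of all arms 17.6% and 18.5% were called lower in these comparisons, with medians of -3.32 and -3.51, so Mir101b 3p, like Mir148a 3p, lay near the median arm on the scale of mapping reads. Mir101b had 3705 and 12350 counts at E12.5, then 6557 and 15883 at E13.5, then 1082 and 94 at E15.5, and last 732 and 1226 in SGET mPGCLCs. Mir140, the next most abundant, had 1787 and 5697, 2270 and 9987, 698 and 1296, and 2199 and 1971 counts in the same order, and its 3p arm was at -2.85 (SE 1.10) for E15.5 minus E12.5, which was not called. The list's median log2 fold change was -4.07 in that comparison, against -3.32 over all arms. The list as a whole made up 0.733 to 1.15% of miRNA-matching reads in the mPGC libraries and 0.499% and 0.506% in SGET mPGCLCs.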

How the data were processed

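Processed counts of 8 libraries (4 groups, 2 each) were used. Per the labels and the study's methods, the authors trimmed adapters and 4 random bases at each adapter end using cutadapt 3.2 and aligned to GRCm38 by STAR 2.5.3a (up to 2 mismatches, up to 100 places, 1 random place kept). The deposited values are raw counts, 1 per distinct sequence. The counts were not normalized or corrected for PCR copies, so intervals and floors (3 counts) cover counting error only. Totals were 7447873 to 26552524 counts, and 3 counts are 0.113 to 0.403 RPM.

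Sequences of 20 to 24 nt were matched exactly to GENCODE M21 miRNA transcripts (GRCm38) and summed per gene and arm, by the midpoint of the read. A read in several genes counted for each, and arms with identical counts were merged. The test was the quasi-likelihood F test of edgeR 4.0.16 under R 4.3.3 (filterByExpr, library size = all mapping reads, threshold 0.05), and DESeq2 1.42.0 was an alternative, both tested on simulated data. The mPGC replicates came from different litters. The sources used here do not say whether the SGET replicates were separate cultures, so p-values may there measure technical spread only. Other values were computed with numpy 2.4.6, scipy 1.17.1 and pandas 2.3.3 (Python 3.11.15). The text names all members, the 3 arms most like each family and the 2 most abundant genes of the other list. Members and lists were chosen with earlier results of these data known. The reads of all lengths and a minimum of 11 counts per sequence were added as alternatives after the data were seen.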

Additional observations from a re-analysis of the deposited data

Results flagged for a closer look

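Reads of the members outside 20 to 24 nt entered none of the comparisons of mature reads and were above the limit of 3 counts in several libraries. Among reads of 15 to 19 nt, Mir29a had 115 counts in E12.5 replicate 1, 135 in E13.5 replicate 1 and 477 in SGET replicate 1. A 16-nt sequence shared by Mir29b-1, Mir29b-2 and Mir29c had 161 counts in SGET replicate 1. Mir148a had 60 counts in E12.5 replicate 2 and 47 in E13.5 replicate 2, and Mir152 had 15 counts in E13.5 replicate 2. Among reads of 25 to 43 nt, Mir29b-1 had 161 counts in E13.5 replicate 2. All but a few counts in each of these libraries came from a single distinct sequence. The groups of 2 libraries are too small to be tested for a sample far from the others.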

How the results depend on the processing

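With miRNA-matching reads as library size, TMM and DESeq2, respectively, the arms called numbered 3, 3 and 9 for E13.5 minus E12.5 (0 as reported), 1, 1 and 22 in E15.5 against E13.5 (91), 16, 13 and 46 in E15.5 against E12.5 (88) and 51, 49 and 103 in the SGET comparison (26). These alternatives centre on the miRNAs and not on all mapping reads, and the cause of the other differences was not tested. Member arms called were then 0, 0 and 0 in E15.5 against E13.5 (1 as reported), 0, 0 and 2 in E15.5 against E12.5 (1), and 2 in DESeq2 for SGET mPGCLC minus E12.5 (1). Fitting only the groups compared gave 17 arms and 0 member arms for SGET mPGCLC minus E12.5, and 2 member arms for E15.5 minus E12.5, the second being Mir148a 5p. Sequences of at least 11 counts gave 12 arms in the SGET comparison, and reads of 15 to 43 nt gave 0 member arms there and a Mir29 family level of 33.8 RPM (2.56 as reported). The call of Mir29a 3p in that comparison held under 17 of 19 alternatives, the others being these last lengths and the fit of only the groups compared.

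In miRNA RPM the Mir29 family was at 561 and the Mir148 family at 4714 in E12.5 libraries. The same pair of values was 1137 and 5019 for E13.5, 5042 and 2826 for E15.5, and 10.5 and 1639 for SGET mPGCLCs. Log2 fold changes that turned in sign under miRNA-matching reads, TMM and DESeq2 were, for E15.5 minus E13.5, Mir29a 3p (2.17, 2.34 and 2.71) and Mir29b-1 5p (2.12, 2.09 and 2.36), and, for E15.5 minus E12.5, Mir29a 3p (3.04, 3.21 and 3.62) and, in DESeq2, Mir152 3p (0.26).

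Leaving out 1 library at a time gave 0 to 4 arms in E13.5 against E12.5, 72 to 97 in E15.5 against E13.5, 41 (without E12.5 replicate 2) to 97 in E15.5 against E12.5, and 17 (without SGET replicate 1) to 53 (without E15.5 replicate 2) for SGET mPGCLC minus E12.5, with member arms at 0 to 0, 1 to 2, 0 to 2 and 1 to 1. A lone library was then assumed to vary like the other groups. Over these fits the log2 fold changes that turned in sign ran, for E13.5 minus E12.5, from -0.47 to 0.74 (Mir148a 3p) and -0.0099 to 1.63 (Mir152 3p). They ran from -6.13 to 0.22 for Mir29b-1 5p in E15.5 minus E13.5 and from -1.64 to 0.67 for Mir29a 3p in E15.5 minus E12.5. In SGET mPGCLC minus E12.5 they ran from -0.14 to 0.96 (Mir148b 3p), -0.92 to 1.42 (Mir152 3p) and -4.25 to 8.13 (Mir29b-1 5p). None of these was called in the reported fit.

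The replicate number as a block gave 42 arms for SGET mPGCLC minus E12.5 and changed no member call. Same-numbered libraries share only a number, and their deviations correlated at 0.0638 to 0.129.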

Other observations

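With 2 libraries a group, the SE of a member log2 fold change was 0.72 or more in the edgeR fits reported, and a difference of that order was not detectable. Counts per arm rest on few distinct sequences and include PCR copies. Levels of different miRNAs also depend on how each sequence is captured, so ratios between members compare groups better than they compare genes. Sequencing batches could not be separated with the labels used here. Neither the mRNAs nor DNA methylation was measured in these libraries. By RT-qPCR, the study reported downregulation of Dnmt3a and Dnmt3b in its sorted mPGCLCs, which include the SGET line.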
